A study of Caenorhabditis elegans with 80 samples.

Results

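The genes of vulval induction in Caenorhabditis elegans were followed across recombinant inbred strains raised at 24 °C and at 16 °C. The set was chosen by name and holds 10 genes, the EGF-like ligand lin-3, its receptor let-23, the Ras gene let-60, the kinases lin-45, mek-2 and mpk-1, the transcription factors lin-1, lin-31 and lin-39, and the Notch receptor lin-12. Of these, 7 have a named probe on the array, 1 probe each, out of 23232 probes. No probe carried the name lin-3, lin-45 or mpk-1, and 5785 probes carry no gene name, so these 3 genes were not analysed here. The named probes belong to let-23 (ZK1067.1, chromosome II), let-60 (ZK792.6, chromosome IV), mek-2 (Y54E10BL.6, chromosome I), lin-1 (C37F5.1, chromosome IV), lin-31 (K10G6.1, chromosome II), lin-39 (C07H6.7, chromosome III) and lin-12 (R107.8, chromosome III).

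Vulval development is a textbook case of an inductive signal in animals. The anchor cell of the gonad secretes LIN-3, which binds LET-23 on the vulval precursor cells and switches on a chain of Ras, Raf, MEK and MAP kinase, at whose end the kinase acts on the ETS factor LIN-1 and the forkhead factor LIN-31. The Hox protein LIN-39 keeps the precursor cells able to respond, and LIN-12 Notch carries the lateral signal by which an induced cell gives its neighbours another fate.

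The strains come from a cross of N2 (Bristol) with CB4856 (Hawaii), and all arrays share that origin. The 24 °C group holds 40 arrays of worms aged 40 h and 77 strains, and the 16 °C group 40 arrays of worms aged 72 h and 78 strains, in each case hermaphrodite L3 larvae staged by the size of gonad and vulva. Each array set the RNA of 2 strains, 1 labelled with Cy3 and 1 with Cy5, against each other and gave 1 log ratio per probe, read here as a log2 value. The sources used here do not say which dye stands in the numerator, so a sign has no strain attached to it, and a ratio holds no level, so neither the order of the genes by level nor a change of level with temperature nor the presence of vulval markers can be read from it. The labels name the same 2 strains on the same dyes at both temperatures for 39 pairs, written here as Cy3 strain/Cy5 strain. A pair has 1 array at each temperature, and a strain is 1 inbred line. Whole larvae were used, in which the vulval precursors are a few cells among many, and fewer cells with a transcript cannot be told apart from less transcript per cell.

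Across all probes the arrays of a temperature shared 1 median absolute ratio, 0.661 at 24 °C and 0.592 at 16 °C, so that they were scaled within each temperature. The standard deviation of a whole array lay between 1.16 and 1.65 at 24 °C and between 1.04 and 1.48 at 16 °C. The strains WN38 and WN80 were used on 2 arrays per temperature and WN65 on 2 of the 24 °C arrays, and results were recomputed without these pairs.

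The strain ratios of the vulval induction genes mostly varied less than the median probe and were not seen to recur between the temperatures. No gene of the 7 repeated its ratio over the 39 pairs. Of all probes, 1.04% did so with a positive r and 0.0258% with a negative one, so 0 of 7 does not set these genes apart. Their median SD over the pairs was 0.785 at 24 °C and 0.793 at 16 °C. The median over all probes was 1.11 at 24 °C and 1.04 at 16 °C. No 2 of them were related to each other past the threshold. Each gene was related to at most 2.0% of all probes at 24 °C and 0.938% at 16 °C. Small spreads were not limited to the set, as the 75 probes of other vulval pathway genes described further on had a median SD of 0.807 at 24 °C and 0.803 at 16 °C. The ratio lay beyond 1 in absolute size, more than a 2-fold difference between the strains, in 67 of 280 values at 24 °C (23.9%, against 32.9% over all probes) and in 50 of 280 at 16 °C (17.9%, against 28.5%). None of the 7 genes passed that size on 7 of the 24 °C arrays and 8 of the 16 °C arrays, and no array had more than 4.

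**Figure D1:**
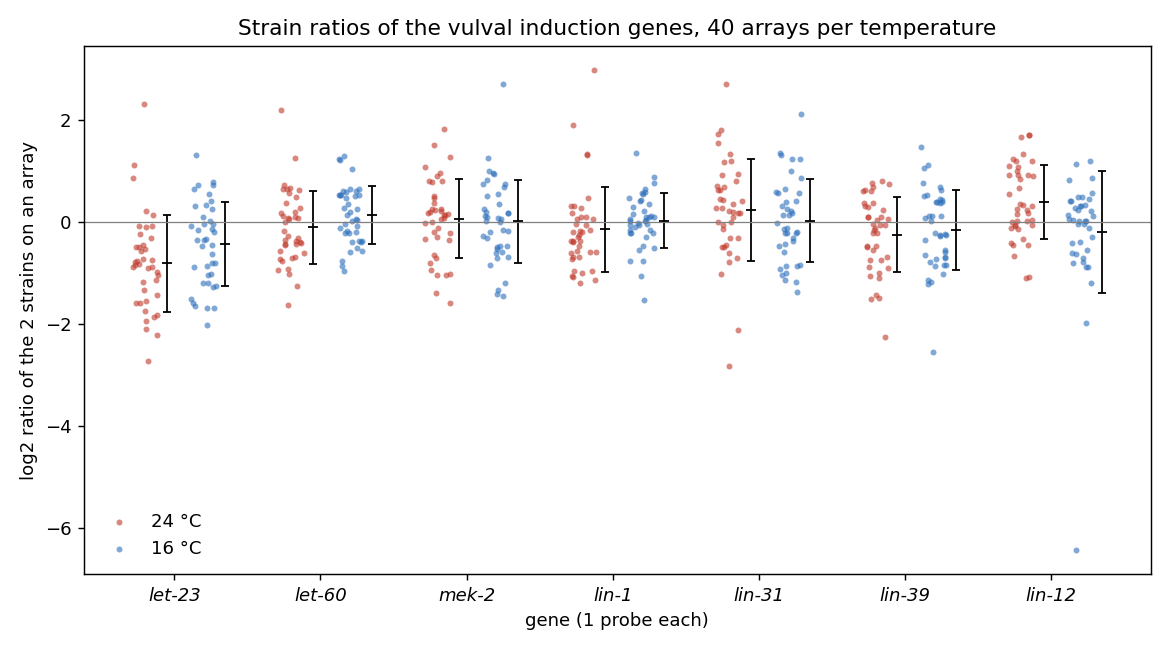
Log2 ratio of the 2 strains on each array (vertical axis) for the 7 genes with a named probe, with 40 arrays at 24 °C (red, left) and 40 at 16 °C (blue, right). Points are arrays, and the bars beside them are the mean ± SD. The ranges of both temperatures overlap for every gene, the let-23 ratios lie mostly below 0, and 1 array at 16 °C stands at -6.44 for lin-12.

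The receptor let-23, the EGF receptor tyrosine kinase of the precursor cells, had ratios from -2.73 (WN19/WN55) over a median of -0.84 to 2.32 (WN3/WN22) at 24 °C. At 16 °C they ran from -2.03 (WN70/WN48) over a median of -0.36 to 1.31 (WN45/WN12). The ranges overlapped, and of these extremes only WN19/WN55 was beyond 1 the same way on its other array, with -1.52 at 16 °C. WN3/WN22, highest at 24 °C, stood at -0.15 at 16 °C, and WN45/WN12, highest at 16 °C, stood at -0.77 at 24 °C.

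The ratios of let-23 leaned to 1 side at both temperatures. Its mean ratio was -0.81 ± 0.95 at 24 °C (SD, n = 40), with 35 of 40 arrays negative, and -0.44 ± 0.82 at 16 °C (SD, n = 40), with 28 of 40 negative. In limma's moderated test of the mean against 0 over all probes, a test added after the data were seen, the Benjamini-Hochberg adjusted p was 2.1e-04 at 24 °C and 0.037 at 16 °C. Of all probes, 6.50% passed this test with a lower mean at 24 °C and 2.70% at 16 °C, and 1.77% at both. Each of the 39 pairs kept its dyes between the temperatures, and no pair was repeated with the dyes exchanged. The 3 strains used with both dyes at 24 °C gave let-23 the same negative sign with either dye, -0.72 and -0.57 for WN38, -0.88 and -1.18 for WN80, and -2.21 and -0.89 for WN65, while at 16 °C WN38 gave -0.63 and 0.72 and WN80 -0.36 and 0.024. The part of the dye in the mean ratio was not tested. Over all 23232 probes the mean ratios of the temperatures were related with r = 0.647 across probes.

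The Ras gene let-60, the switch of the pathway, had ratios from -1.64 (WN45/WN12) over a median of -0.23 to 2.20 (WN24/WN49) at 24 °C, and from -0.96 (WN4/WN73) over a median of 0.095 to 1.30 (WN45/WN12) at 16 °C, where 36 of 40 were within 1 of 0. The temperatures overlapped, and some pairs at the ends changed side, since WN45/WN12 was lowest at 24 °C and highest at 16 °C, and WN80/WN7 was second highest at 24 °C (1.25) and second lowest at 16 °C (-0.87). Others kept it, as WN4/WN73, with -0.18 at 24 °C, and WN60/WN77, with 0.66 at 24 °C and 1.24 at 16 °C.

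The MAP kinase kinase gene mek-2 gave ratios from -1.59 (WN70/WN48) over a median of 0.14 to 1.83 (WN17/WN33) at 24 °C, and from -1.46 (WN14/WN18) over a median of 0.035 to 2.70 (WN15/WN35) at 16 °C. The ranges overlapped, and WN17/WN33 was among the 2 highest pairs at both temperatures, with 1.83 at 24 °C and 1.25 at 16 °C. WN15/WN35, the highest pair at 16 °C, had 0.15 at 24 °C.

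The ETS factor lin-1, which holds back vulval fates until the MAP kinase acts on it, had ratios from -1.20 (WN16/WN34) over a median of -0.28 to 2.98 (WN64/WN63) at 24 °C. At 16 °C they lay between -1.53 (WN50/WN28) and 1.36 (WN38/WN47) with a median of 0.031, and 37 of 40 were within 1 of 0. The 2 highest pairs at 24 °C, WN64/WN63 and WN3/WN22 (1.90), stood at 0.022 and 0.12 at 16 °C.

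The forkhead factor lin-31, a target of the MAP kinase in the precursor cells, had ratios from -2.83 (WN51/WN74) over a median of 0.24 to 2.71 (WN42/WN11) at 24 °C. At 16 °C they ran from -1.37 (WN68/WN37) over a median of -0.070 to 2.11 (WN29/WN78). The groups overlapped, WN29/WN78 was above 1 at both temperatures (1.32 at 24 °C), and WN51/WN74, lowest at 24 °C, was second highest at 16 °C with 1.35.

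The Hox gene lin-39 gave ratios from -2.26 (WN14/WN65) over a median of -0.093 to 0.79 (WN80/WN7) at 24 °C, where no array passed 1 and 7 were below -1. At 16 °C they ran from -2.56 (WN46/WN69) over a median of -0.22 to 1.46 (WN64/WN63). The lowest pair at 16 °C had 0.68 at 24 °C. Both 24 °C arrays with WN65 were the lowest of their group, -2.26 for WN14/WN65 and -1.52 for WN65/WN30, although WN65 stands on opposite dyes on these 2 arrays.

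The Notch receptor lin-12 had ratios from -1.11 (WN54/WN6) over a median of 0.29 to 1.71 (WN2/WN52) at 24 °C, and from -6.44 (WN75/WN66) over a median of 0.034 to 1.20 (WN13/WN21) at 16 °C. The pair WN75/WN66 stood far from the other 16 °C arrays, of which the next lowest was WN24/WN49 at -1.99, and it had 1.1 at 24 °C. The mean ratio of lin-12 was 0.39 ± 0.73 at 24 °C (SD, n = 40), with 27 of 40 arrays positive (limma, Benjamini-Hochberg adjusted p = 0.021), against -0.20 ± 1.20 at 16 °C (SD, n = 40), with 23 positive (adjusted p = 0.65). The 16 °C mean and SD include the -6.44 of WN75/WN66, and the 16 °C median was above 0 (0.034). Of all probes, 7.88% passed with a higher mean at 24 °C, and the difference in mean between temperatures was not tested.

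Few arrays moved the whole set one way. The ratios of all 7 genes had the same sign on 4 of the 24 °C arrays, negative for WN51/WN74 and WN67/WN26 and positive for WN3/WN22 and WN5/WN25, and on 1 of the 16 °C arrays, negative for WN24/WN49. None of these pairs kept 1 sign over the set at the other temperature. On the 24 °C array of WN51/WN74 the receptor let-23 stood at -1.94, mek-2 at -1.02, lin-1 at -1.08 and lin-31 at -2.83, 4 genes below -1, while at 16 °C the same pair had -0.81 for let-23, 0.19 for mek-2, 0.41 for lin-1 and 1.35 for lin-31. At 16 °C WN24/WN49 had -1.65 for let-23 and -1.99 for lin-12, against a 24 °C array with 5 of 7 genes positive. The share of all probes beyond 1 on the 24 °C array of WN51/WN74 was 33.2%, close to that of the other arrays.

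The first comparison asked whether a strain difference seen at 24 °C was there at 16 °C in the same strains. The Pearson correlation of the ratio at 24 °C with that at 16 °C over the 39 pairs was called at a Benjamini-Hochberg adjusted p below 0.05 over all probes. By this test 0 of 7 genes were called in either direction, where 1.04% of all probes were called with a positive r and 0.0258% with a negative one. At an unadjusted p below 0.05 there were also 0 of 7, against 7.70% of all probes.

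The largest r was that of mek-2, 0.190 (95% interval -0.133 to 0.477), with the same sign in 25 of 39 pairs, Spearman's rho of 0.219 and r = 0.204 without the 2 pairs farthest from the median. For let-23 r was 0.0824 (interval -0.239 to 0.388) and for lin-1 0.0435 (interval -0.276 to 0.354). Those of lin-31 and let-60 were close to 0, -0.0101 (interval -0.325 to 0.306) and -0.0600 (interval -0.369 to 0.260). The Hox gene lin-39 and the Notch receptor lin-12 had the lowest values, -0.166 (interval -0.458 to 0.158) and -0.185 (interval -0.473 to 0.138). The median of the 7 was -0.0101, against 0.0320 over all probes, and the permutation p of r over the 7 genes lay between 0.247 for mek-2 and 0.952 for lin-31.

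**Figure D2:**
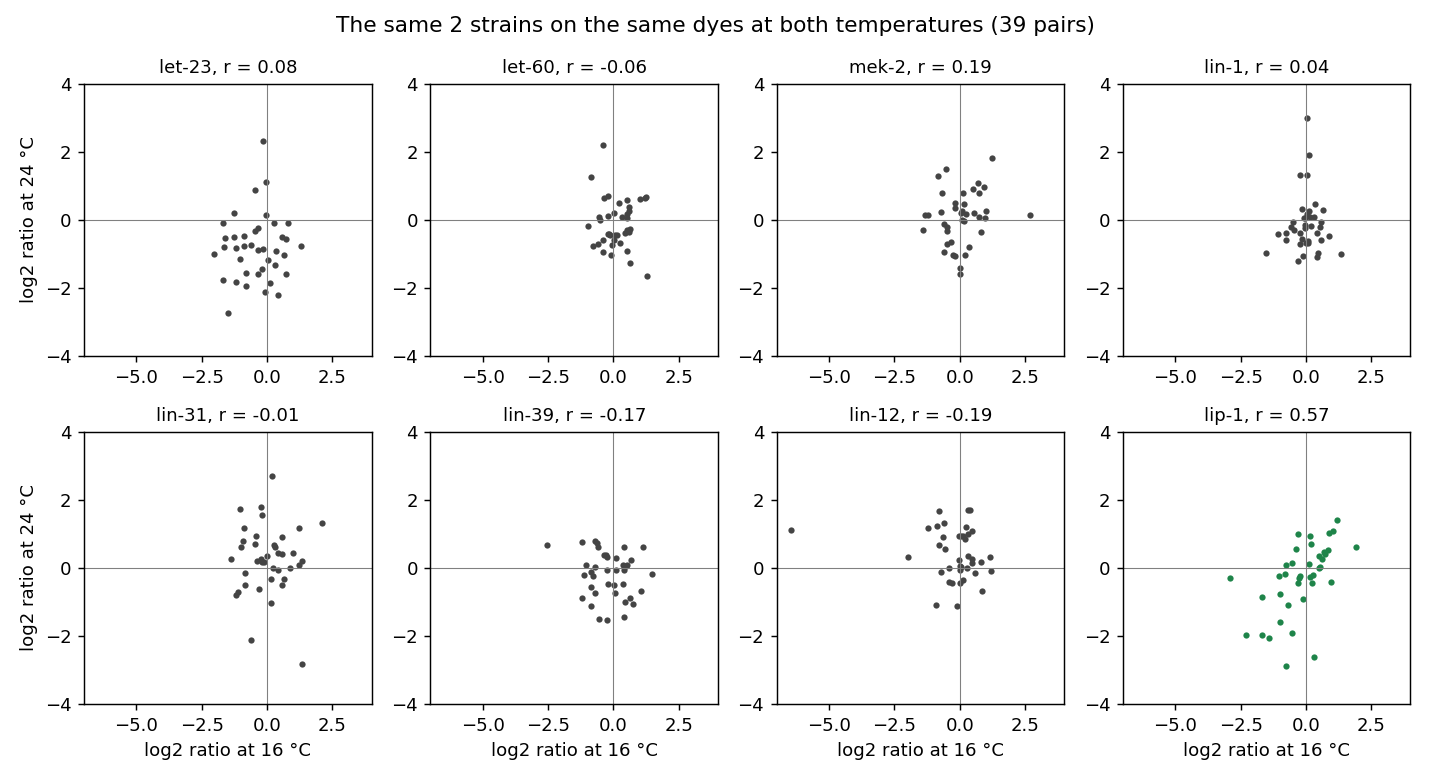
Log2 ratio at 24 °C (vertical) against the ratio at 16 °C (horizontal) for 39 strain pairs, 1 panel per gene. Points are pairs. The 7 induction genes (black) have r between -0.19 and 0.19, and lip-1 (green), a MAP kinase phosphatase outside the set, has r = 0.57.

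The second comparison asked whether strains differed more at one temperature, by the SD of the ratio over the 39 pairs and the Pitman-Morgan test for paired variances. It sets side by side values that were scaled within each temperature. By SD at 24 °C the order was lin-31 (1.01), let-23 (0.963), lin-1 (0.835), mek-2 (0.785), lin-12 (0.735), let-60 (0.730) and lin-39 (0.662), and at 16 °C it was lin-12 (1.21), let-23 (0.830), lin-31 (0.824), lin-39 (0.793), mek-2 (0.787), let-60 (0.581) and lin-1 (0.529). Neighbours in these orders were not tested against each other. For mek-2 the SDs were nearly equal, and those of let-23, let-60 and lin-31 were 1.16, 1.26 and 1.23 times as large at 24 °C as at 16 °C without passing the test (Benjamini-Hochberg adjusted p over all probes, 0.63, 0.42 and 0.47).

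Of the 7 genes 1 passed, lin-12, with an SD 0.606 times as large at 24 °C as at 16 °C (log2 ratio -0.72, Pitman-Morgan adjusted p = 0.035), where 3.0% of all probes passed with a larger spread at 16 °C and 6.12% with a larger spread at 24 °C. This call rests on the single array of WN75/WN66 at 16 °C. Without that pair the SDs were 0.736 at 24 °C and 0.659 at 16 °C (log2 ratio 0.16, adjusted p = 0.74), and the call was also lost without WN24/WN49 (adjusted p = 0.055). The lin-1 SD was 1.58 times as large at 24 °C, 0.835 against 0.529 at 16 °C, and missed the threshold (log2 ratio 0.66, adjusted p = 0.062), and it passed without the recurring strains (log2 ratio 0.80, adjusted p = 0.035) and in 4 of 39 analyses that left out 1 pair. Without WN64/WN63, its highest pair at 24 °C, the log2 ratio was 0.32 (adjusted p = 0.44), and without WN3/WN22 it was 0.54 (adjusted p = 0.15).

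The third comparison asked whether steps of the pathway varied together over strains, and took the 21 relations among the 7 genes at each temperature. A relation was called where it passed, in both directions, a Benjamini-Hochberg adjusted p of 0.05 over all probes tested against the gene. None of the 21 was called at 24 °C or at 16 °C. The values were larger at 24 °C, with a mean absolute r of 0.205 and 17 of 21 positive, than at 16 °C, with 0.0946 and 14 of 21 positive, and the relations share genes and arrays. Against all probes, the median absolute r of a gene at 24 °C lay between 0.113 (mek-2) and 0.154 (lin-1). At 16 °C it lay between 0.105 (lin-12) and 0.136 (let-60). These values over all probes are medians and those of the set are means, so they are unlike measures.

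At an unadjusted permutation p below 0.05 there were 4 of 21 relations at 24 °C and 0 of 21 at 16 °C. At an unadjusted p of r below 0.05 each gene was related to between 5.22% and 17.1% of all probes at 24 °C (mean 11.8%) and to between 5.75% and 12.7% at 16 °C (mean 7.84%). The receptor let-23 and lin-1 had r = 0.493 at 24 °C (permutation p = 0.0023, rho = 0.372 with permutation p = 0.018, adjusted p of 0.10 and 0.052 in the 2 directions) and r = 0.106 at 16 °C. For let-23 and lin-39 r was 0.422 at 24 °C (permutation p = 0.0065, rho = 0.410 with p = 0.0096) and 0.157 at 16 °C. Without the 2 arrays farthest from the median both had r = 0.443 at 24 °C. Without WN3/WN22 let-23 and lin-1 had 0.362, and with the first 2 principal components removed the values were 0.339 for let-23 with lin-1 and 0.265 for let-23 with lin-39.

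The factors lin-1 and lin-39 had r = 0.401 at 24 °C (permutation p = 0.010, rho = 0.461 with p = 0.0031) and -0.112 at 16 °C, and lin-31 and lin-12 had 0.417 at 24 °C (permutation p = 0.0072, rho = 0.427 with p = 0.0064) and 0.0947 at 16 °C. With the principal components removed these were 0.231 and 0.319 at 24 °C. Swapping the temperatures within the matched pairs tested each difference in r, and 0 of 21 had a p below 0.05. The smallest was that of lin-1 and lin-39, a difference of 0.486 (24 °C minus 16 °C, permutation p = 0.074). The r of mek-2 with the other genes of the set lay between -0.135 and 0.175 at 24 °C and between -0.247 and 0.0780 at 16 °C.

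**Figure D3:**
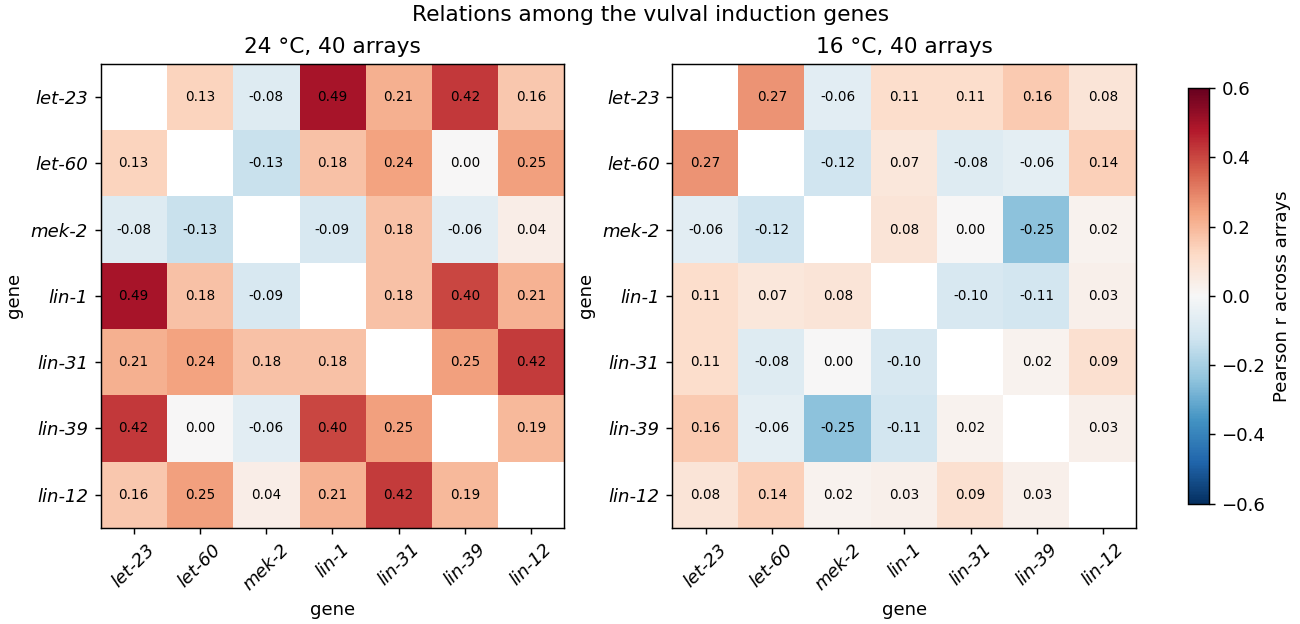
Pearson r across 40 arrays between each 2 of the 7 genes at 24 °C (left) and 16 °C (right), with the value in each square and colour from blue (negative) to red (positive). The largest is 0.49 for let-23 and lin-1 at 24 °C, and none passed the adjusted threshold at either temperature.

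Each gene was also set against all 23231 other probes. At 24 °C lin-1 was related to 465 probes (2.0%), let-60 to 228 (0.981%), lin-12 to 13 (0.0560%), let-23 to 11 (0.0474%), lin-39 to 6 (0.0258%), and mek-2 and lin-31 to 0 (0%). At 16 °C lin-39 was related to 218 probes (0.938%), of which 198 were negative, lin-12 to 132 (0.568%) and let-60 to 73 (0.314%), and the other 4 genes to 0. The 132 probes of lin-12 rest on WN75/WN66, since without that array there were 0. The counts of the other genes were not recomputed without single arrays.

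For each gene the most alike named probe outside the lists was taken, the one whose smaller r of both temperatures over 40 arrays each was largest. It was sipa-1 for lin-1 (r = 0.711 at 24 °C and 0.633 at 16 °C), nkb-3 for let-60 (0.566 at 24 °C and 0.579 at 16 °C), nac-2 for lin-12 (0.659 at 24 °C and 0.520 at 16 °C) and glt-7 for lin-39 (0.495 at 24 °C and 0.512 at 16 °C). For let-23 it was tps-1 (0.478 at 24 °C and 0.554 at 16 °C), for lin-31 lrch-1 (0.467 at 24 °C and 0.407 at 16 °C) and for mek-2 R07E3.4 (0.400 at 24 °C and 0.411 at 16 °C). These were the highest of all named probes by construction. Only let-60 with nkb-3, a gene for a subunit of the sodium-potassium pump, passed the adjusted threshold at both temperatures (Benjamini-Hochberg adjusted p over all probes, 0.024 at 24 °C and 0.042 at 16 °C), with rho of 0.568 at 24 °C and 0.659 at 16 °C. Without the 2 arrays farthest from the median, let-60 with nkb-3 had r = 0.424 at 24 °C and 0.502 at 16 °C. The relation of lin-12 to nac-2 at 16 °C was 0.248 without the 2 arrays farthest from the median.

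Because RNA of whole larvae was compared, the genes were set beside scores of 4 marker lists, each the mean standardised ratio of its probes. The lists were collagens of the cuticle furrows (5 probes, made anew in each molting cycle), major sperm proteins (18 probes), vitellogenins (11 probes, the yolk proteins of the adult intestine) and body wall muscle (7 probes). The probes of the first 3 lists varied together, with a mean r within the list of 0.643, 0.509 and 0.497 at 24 °C and 0.463, 0.465 and 0.482 at 16 °C, and those of the muscle list hardly did (0.0834 at 24 °C and 0.0244 at 16 °C). Related to the scores were 2.56%, 7.46%, 9.24% and 0.702% of all probes at 24 °C in the order of the lists and 1.53%, 2.55%, 1.20% and 0% at 16 °C.

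Of the 28 relations of the 7 genes to the 4 scores, 1 was called at 24 °C and 0 at 16 °C. The Hox gene lin-39 was negatively related to the vitellogenin score at 24 °C, with r = -0.480 (permutation p = 0.0021, Benjamini-Hochberg adjusted p over all probes 0.025) and rho = -0.587 (permutation p = 9.0e-05), and with -0.452 without the 2 arrays farthest from the median. At 16 °C the relation had nearly the same size without passing, r = -0.448 (permutation p = 0.0035, adjusted p = 0.13) and rho = -0.434, and with the major sperm proteins lin-39 had r = -0.336 at 24 °C and -0.447 at 16 °C. Without the recurring strains the call at 24 °C was lost (r = -0.483, adjusted p = 0.056), and it was lost with the first 2 principal components removed (r = -0.258, adjusted p = 0.65). Set against the vitellogenin score of the same strain pairs at 16 °C, the 24 °C ratios of lin-39 had a positive r, given further on. Of all probes, 9.24% were related to the vitellogenin score at 24 °C.

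The other genes did not pass with any score. At 24 °C all 7 were negative with the major sperm proteins, between -0.336 and -0.0382, and 6 of 7 with the vitellogenins, where lin-31 had -0.419 (adjusted p = 0.067), lin-12 -0.395 (adjusted p = 0.091) and let-23 -0.335 (adjusted p = 0.18). At 16 °C 4 of 7 were negative with each of these scores. With the furrow collagens let-23 had r = 0.347 and lin-1 0.324 at 24 °C (adjusted p of 0.29 and 0.34), and with body wall muscle lin-12 had 0.405 and mek-2 -0.363 (adjusted p of 0.21 and 0.29). The relation of lin-12 to the muscle score, whose probes hardly vary together, was called with the first 2 principal components removed (r = 0.590, adjusted p = 0.023). The part of larval stage or tissue in any ratio of the set was not tested.

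**Figure D4:**
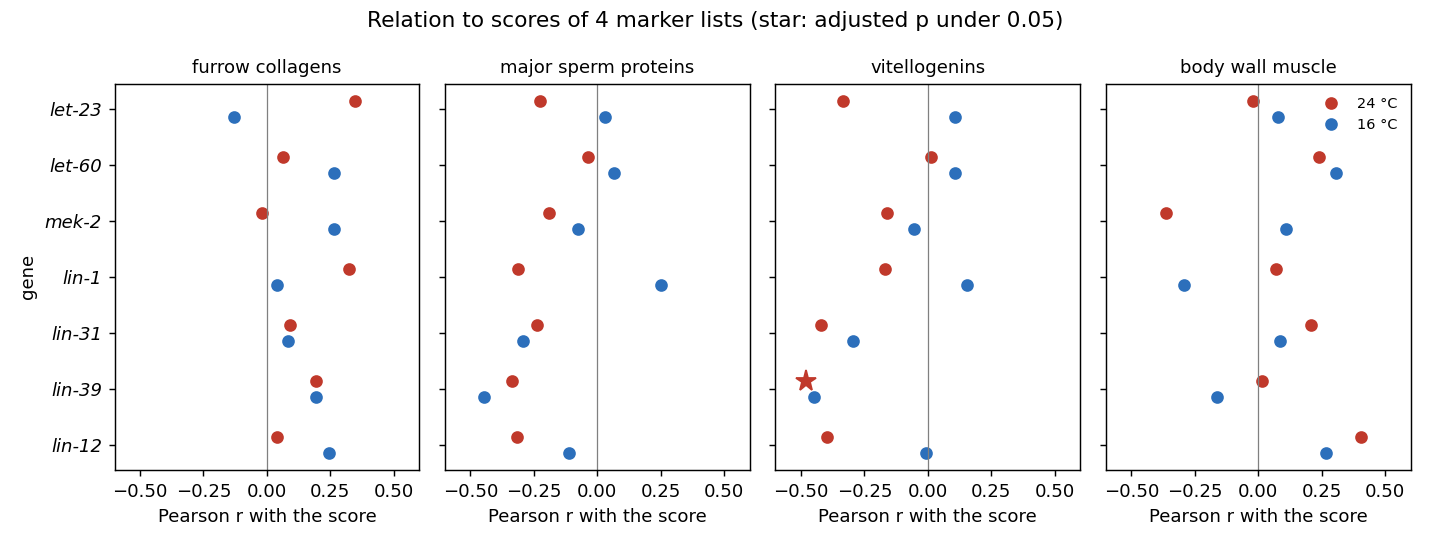
Pearson r of each gene with the score of 4 marker lists across 40 arrays at 24 °C (red, upper) and 40 at 16 °C (blue, lower). The star marks the only relation past the adjusted threshold, lin-39 with the vitellogenins at 24 °C, and the 16 °C value of that relation lies close to it.

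Around the induction genes 6 further lists of the pathway were followed, 104 genes of which 74 were measured by 75 probes. Of these 75 probes 1 was repeatable, that of lip-1, a negative regulator of the EGF receptor and Ras pathway, against 1.04% of all probes. The count is close to that share and does not set these lists apart. The median r was -0.0788 over 11 positive regulators of the receptor and Ras pathway and 0.112 over the 9 negative regulators. It was 0.0273 over 17 synMuv genes (which keep lin-3 silent outside its source) and -0.00971 over 13 Notch pathway genes. Over 10 Wnt pathway genes it was 0.00749, and over 15 probes of vulval transcription factors and fate genes -0.0257.

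The gene lip-1 encodes a phosphatase that takes MAP kinase out of action and is switched on by LIN-12 in cells that receive the lateral signal. Its ratios ran from -2.88 (WN71/WN79) over a median of -0.20 to 1.42 (WN16/WN34) at 24 °C, and from -2.93 (WN1/WN80) over a median of -0.011 to 2.22 (WN14/WN18) at 16 °C. Over the 39 pairs r was 0.565 (95% interval 0.304 to 0.747, permutation p = 1.5e-04, Benjamini-Hochberg adjusted p over all probes 0.022) and rho 0.624 (permutation p = 3.0e-05), with the same sign in 29 of 39 pairs.

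Pairs that repeated include WN16/WN34, with 1.42 at 24 °C and 1.19 at 16 °C, WN3/WN22, with 1.09 at 24 °C and 1.05 at 16 °C, and WN27/WN56, with -1.96 at 24 °C and -2.30 at 16 °C. Other pairs at the ends did not, as WN1/WN80, lowest at 16 °C, had -0.30 at 24 °C. WN24/WN49, second lowest at 24 °C (-2.62), had 0.29 at 16 °C, and WN71/WN79, lowest at 24 °C (-2.88), had -0.75. The SDs of lip-1 were close, 1.05 at 24 °C and 1.00 at 16 °C, and leaving out the 2 pairs farthest from the median gave r = 0.601. When 1 pair at a time was left out r stayed between 0.525 and 0.638, and the adjusted p passed 0.05 in 3 of 39 cases (without WN16/WN34 0.0501, without WN8/WN41 0.052 and without WN27/WN56 0.064). None of the relations of lip-1 to the 7 induction genes was called, where 0% of all probes were related to lip-1 at 24 °C and 0.00861% at 16 °C, and the largest in size was that with lin-31 at 16 °C (r = -0.324, permutation p = 0.041).

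**Figure D5:**
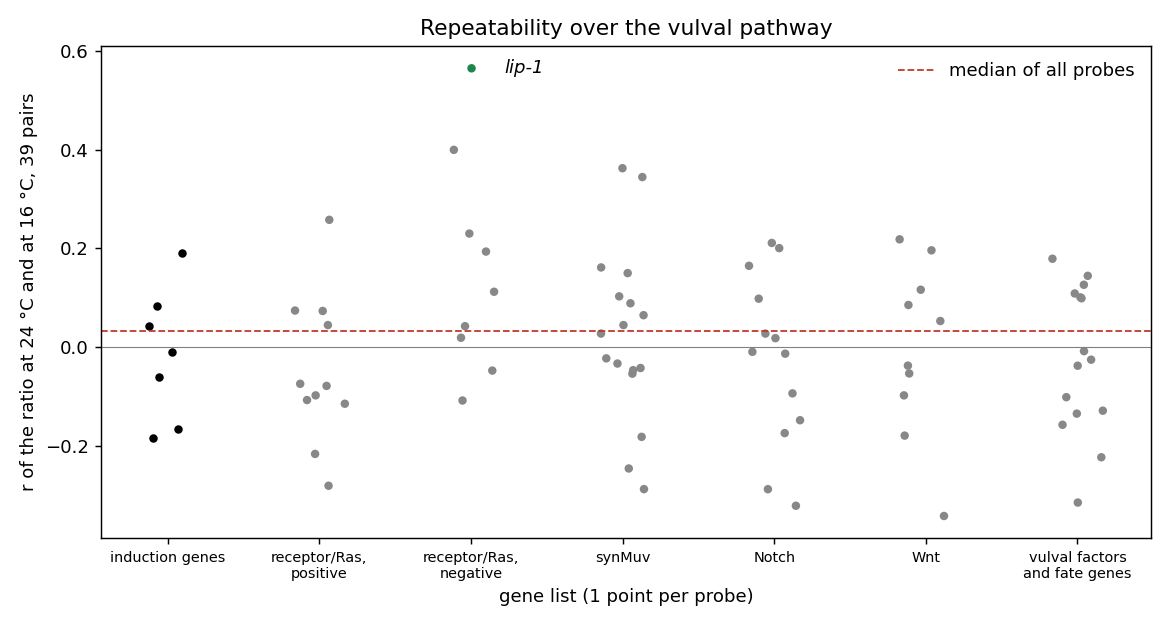
Pearson r of the 24 °C ratio with the 16 °C ratio over 39 strain pairs (vertical axis), 1 point per probe, for the 7 induction genes (black) and 6 lists of other vulval pathway genes (grey). The dashed line is the median of all probes, 0.0320, and lip-1 (green) is the only probe past the adjusted threshold.

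In each of the other 5 lists the largest absolute r within the list belonged to cnk-1 (r = -0.281, a scaffold of Ras signalling), let-418 (0.363, a chromatin remodelling ATPase), sel-12 (-0.322, a presenilin), lin-18 (-0.343, the Ryk receptor for Wnt) and ceh-2 (-0.315, a homeobox gene), none of them called. The spread differed past the threshold for 2 of the 75 probes, 1 larger at 24 °C and 1 larger at 16 °C, where 6.12% of all probes were larger at 24 °C and 3.0% at 16 °C. The SD of the Wnt gene egl-20 was 1.28 in the 24 °C pairs, against 0.716 in the 16 °C pairs (Pitman-Morgan adjusted p = 0.014), and this rests on WN54/WN6, which stood at -6.85 at 24 °C and -0.027 at 16 °C, since without that pair the SDs were 0.726 at 24 °C and 0.724 at 16 °C (adjusted p = 1.0).

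The gene aph-1, for a subunit of the gamma-secretase that cuts Notch, varied with an SD of 0.671 in the 24 °C pairs, against 1.18 in the 16 °C pairs (Pitman-Morgan adjusted p = 0.013), and without its most extreme pair, WN71/WN79, 0.668 at 24 °C and 1.12 at 16 °C (adjusted p = 0.030). The largest difference of the other lists was that of gap-3, a Ras GTPase activating protein, with 1.58 at 24 °C and 2.46 at 16 °C (adjusted p = 0.051). The SDs of the synMuv gene lin-13 were 0.826 at 24 °C and 0.555 at 16 °C (adjusted p = 0.11). Those of lin-25, a positive regulator, were 0.907 at 24 °C and 0.649 at 16 °C (adjusted p = 0.18). For egl-38, a Pax factor of the vulva and uterus, they were 1.48 at 24 °C and 1.11 at 16 °C (adjusted p = 0.29).

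The genes next to the induction genes on their chromosomes were tested in the same way. Of the 20 named probes on each side of each gene, 40 per gene, 0 were repeatable beside let-23, let-60, mek-2, lin-1, lin-39, lin-12 and lip-1, and 1 of 40 beside lin-31 (Y14H12A.1). Of all probes, 1.04% were repeatable with a positive r and 0.0258% with a negative one. With 40 probes per gene, counts of 0 or 1 do not set any of these neighbourhoods apart. The recurring strains allow a look at sign within a temperature, because WN38 and WN80 stand on the Cy5 side of one array and the Cy3 side of another. A strain with its own high or low level would tend to give opposite signs on these 2 arrays. This need not hold for a probe that leans to 1 side on most arrays, as that of let-23 did at 24 °C. Signs were opposite for WN38 in 4 of 7 genes at 24 °C and 4 of 7 at 16 °C. For WN80 they were opposite in 4 of 7 at 24 °C and 6 of 7 at 16 °C, and for WN65 in 0 of 7 at 24 °C. The partner strain of each array differs. No share over all probes is given beside these counts of signs, so they are not read as a result about the genes.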

How the data were processed

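Per the labels, 80 two-colour arrays were hybridised. The authors deposited their ratios already normalized, with 1 value for each probe on each array, and these were taken as log2 values since limma is the tool named in the submitters' notes (no version). The base, the dye in the numerator and any centring are not given in the sources used here, and single intensities were not used, so precision is set by how many arrays there are. No value was missing. Gene names came from the platform table (17447 probes with 1 name), of which 17358 were joined by identifier to the annotation of assembly WBcel235, used only for names and neighbours.

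Ratios at both temperatures were compared over 39 matched pairs by Pearson's r and the Pitman-Morgan test, and relations within a temperature over 40 arrays, with Benjamini-Hochberg adjustment over all probes at 0.05. Permutation tests were two-sided with 100000 resamples. Named genes were all genes of the set, in each further list those past the repeatability test and those with the largest absolute r and spread ratio, and the most alike gene of each. The genes and lists were chosen with earlier results of these data known. Marker regression was not repeated. Alternatives were ranks, array scaling, removal of 2 principal components, leaving out pairs, other scores and a threshold of 0.01. Python 3.11.15, numpy 2.4.6, scipy 1.17.1, pandas 2.3.3, R 4.3.3 and limma 3.58.1 were used, and scripts were tested on simulated data.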

Additional observations from a re-analysis of the deposited data

Results flagged for a closer look

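Spread over strain pairs differed between the temperatures for 3 of 82 vulval pathway probes by the Pitman-Morgan test, 1 larger at 24 °C and 2 larger at 16 °C, where 6.12% of all probes were larger at 24 °C and 3.0% at 16 °C. These were lin-12, with a log2 SD ratio (24 °C over 16 °C) of -0.72, aph-1 with -0.82 and egl-20 with 0.84. Without its most extreme pair, lin-12 had 0.16 (adjusted p = 0.74) and egl-20 0.0029 (adjusted p = 1.0), while aph-1 had -0.75 (adjusted p = 0.030).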

How the results depend on the processing

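The count of repeatable induction genes was 0 under every alternative run, including a threshold of 0.01 and each pair left out in turn. The count of relations among them was 0 at both temperatures with ranks, scaled arrays, the principal components removed, without the recurring strains, without WN3/WN22 and on matched pairs only. Of the 75 other probes, only that of lip-1 was repeatable under ranks, without the recurring strains and without the first 2 principal components. The count of induction genes whose spread differed, 1 as reported, was 0 with ranks, 2 without the recurring strains and between 0 and 2 with single pairs left out. It was lost without WN75/WN66, where the log2 SD ratio of lin-12 was 0.16, and without WN24/WN49, and was 2 without WN68/WN37, WN67/WN26, WN38/WN47 or WN50/WN28, which brought in lin-1. The count of score relations, 1 at 24 °C, was 2 with ranks (lin-12 with the vitellogenins was added), 1 with the principal components removed (lin-12 with body wall muscle in place of lin-39 with the vitellogenins), 0 without the recurring strains and 0 with the scores of the other temperature; at 16 °C it was 1 with the first principal component of a list (lin-39 with the major sperm proteins, r = -0.503). The cause was not tested.

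Signs changed in 16 cases beside the single pairs left out, 2 of them of called values (the spread of lin-12 with ranks and lin-39 with the vitellogenins at 24 °C under the score of the other temperature). With ranks r was 0.0530 for let-60 and 0.0121 for lin-31, and the log2 SD ratio was -0.028 for let-23, 0.074 for mek-2, -0.023 for lin-31 and 0.15 for lin-12. Without the recurring strains r was 0.0020 for let-60, the log2 SD ratio 0.050 for mek-2, and r of let-23 and lin-1 at 16 °C -0.0127. Without WN3/WN22 the log2 SD ratio of let-23 was -0.025, with scaled arrays r of lin-31 was 0.0115, and without the principal components the log2 SD ratio of mek-2 was 0.043. With the score of the other temperature lin-39 had r = 0.131 and 0.447 at 24 °C and 0.0155 and 0.0674 at 16 °C with the major sperm proteins and the vitellogenins. The mean ratios of let-23 and lin-12 kept their side of the threshold in 9 of 9 recomputations, which were chosen after seeing the data, as were those of aph-1 and egl-20. The array numbers are not shared between temperatures. The tests of repeatability, of spread and of the difference in r already pair the arrays by strain. Those within a temperature use all its arrays without pairing.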
